A study of Mus musculus with 24 samples.

Results

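A set of 170 genes was described, out of 16617 genes in a table of mouse embryonic stem cell expression, that were higher in formative than in naive cells of 2 lines and had a lower formative level where MLL4 was missing along with MLL3. A gene was a member when its mean log2 CPM (counts scaled to the total of the library, on a log2 scale) was at least 1 higher in formative than in naive cells of both the wild-type and the floxed line. Its formative floxed level had to be at least 2, and its formative knockout level at least 1 below the floxed one. These conditions held for 177 genes. Fgf8, Trim67 and Lefty1 were left out by name, and Col18a1, Col2a1, Kcnip3 and Kcnq3 by family name, which left 170. Of all genes, 2969 met the wild-type condition, 1951 also met the floxed one, and 1136 of these passed the level.

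The cells were of 4 genotypes in 2 states, with 3 samples labelled for each group that were cultured independently, 24 altogether. Wild-type cells and MLL3CD_MLL4CD cells, called catalytic dead here, were of the R1 line per the labels. MLL3KO_MLL4fl cells (floxed) and MLL3KO_MLL4KO cells (knockout) both lack MLL3 by their names, and the labels give no cell line for them, so knockout against floxed is a comparison of MLL4 loss on an MLL3-deficient background. Naive cells had no treatment label and formative cells were collected 63 h after withdrawal of LIF and 2i, the inhibitor mix that holds cells naive. The design text counts a cell line for each genotype, so genotype and other differences between lines cannot be told apart. The table's column names shorten the genotypes, and its CKO columns were read as the floxed cells, the genotype with a conditional allele, which no label states directly.

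The genes Kmt2c and Kmt2d code for MLL3 and MLL4, large histone H3 lysine 4 methyltransferases that sit at enhancers and carry much of the monomethylation found there. A catalytic-dead version is made to keep the protein while losing the enzyme activity. Formative pluripotency is the state between the naive epiblast and the primed epiblast, in which cells start to form a polarised epithelium and become able to respond to signals for germ layers and germ cells.

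Reads were 3' tags of polyadenylated RNA, so that each transcript gives about 1 tag whatever its length and levels are not compared between genes here. In bulk RNA, fewer cells that express a gene and less RNA per cell cannot be told apart. The table gave 1 mean per group, from which the counts of 23 libraries of 4.81 to 15.4 M counts were recovered. The naive wild-type mean held 2 libraries, and the formative knockout mean held 4, of which 1 with 6919314 counts also stood in the formative catalytic-dead mean and was removed from the knockout. The nearest library by correlation came from the same group for all 23, a likeness that the search around each group's mean can raise. Of the 170 members, 114 had library values in every group, and for 26 the formative knockout mean without the shared library is approximate. Libraries are listed below in order of falling depth.

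Tags over Kmt2c and Kmt2d were a weak check of the genotypes, since a 3' tag may lie outside a deleted part. Kmt2d stood at 33.0, 22.2 and 32.0 CPM in naive floxed libraries, above all 3 naive knockout ones, of which the lowest was at 15.3 CPM. The groups did not overlap, and the knockout was lower by a log2 difference of -0.71 ± 0.18 (SE, limma, adjusted p = 0.00524), a call that was lost when only these groups were fitted (adjusted p = 0.0527). Kmt2c stood at 23.4 CPM in naive floxed against 48.8 CPM in naive wild-type cells, as group means. In formative cells Kmt2d means were 25.5 CPM in floxed, 20.2 CPM in knockout and 20.3 CPM in catalytic-dead cells, against 35.7 CPM in wild-type cells. Formative Kmt2d was lower in catalytic-dead than in wild-type cells by -0.81 ± 0.17 log2 (adjusted p = 0.00244). Its formative tags thus did not set the knockout apart from the catalytic-dead line. Naive catalytic-dead libraries stood at 28.6, 27.5 and 26.1 CPM, above all naive knockout ones. The naive knockout was lower than these by -0.65 ± 0.19 log2 (adjusted p = 0.0123).

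Sequences of 4 members are shown to set out the promoters of genes whose patterns differ in the results that follow. Calca, Gstt1 and Crb3 had high formative levels in catalytic-dead and low ones in knockout cells, and Phlda2 was low in both mutants. Each run holds 250 bases before and 50 bases from the RefSeq transcription start, read 5' to 3' on the gene's strand (GRCm38.p6), and capitals mark matches on either strand to the TATA box (TATAAA), the CCAAT box (CCAAT) or the GC box (CCGCCC).
Calca, chr7:114636308-114636607, minus strand: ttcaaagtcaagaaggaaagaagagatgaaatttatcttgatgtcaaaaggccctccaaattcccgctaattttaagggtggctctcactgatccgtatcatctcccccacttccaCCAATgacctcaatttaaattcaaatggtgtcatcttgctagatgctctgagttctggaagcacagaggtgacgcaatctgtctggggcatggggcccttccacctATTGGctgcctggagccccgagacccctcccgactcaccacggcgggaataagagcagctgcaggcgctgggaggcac
Gstt1, chr10:75797682-75797981, minus strand: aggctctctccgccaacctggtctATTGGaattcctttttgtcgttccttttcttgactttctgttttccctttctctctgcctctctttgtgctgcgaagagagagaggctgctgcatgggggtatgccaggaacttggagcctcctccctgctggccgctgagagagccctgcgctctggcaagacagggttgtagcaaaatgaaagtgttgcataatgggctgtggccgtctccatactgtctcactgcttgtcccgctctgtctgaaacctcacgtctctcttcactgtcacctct
Phlda2, chr7:143502475-143502774, minus strand: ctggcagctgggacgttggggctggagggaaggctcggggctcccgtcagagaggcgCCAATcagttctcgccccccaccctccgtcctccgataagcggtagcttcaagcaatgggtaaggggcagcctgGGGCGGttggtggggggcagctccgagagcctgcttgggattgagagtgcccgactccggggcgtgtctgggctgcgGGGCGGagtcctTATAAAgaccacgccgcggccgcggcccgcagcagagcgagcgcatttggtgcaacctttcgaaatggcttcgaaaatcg
Crb3, chr17:57061951-57062250, plus strand: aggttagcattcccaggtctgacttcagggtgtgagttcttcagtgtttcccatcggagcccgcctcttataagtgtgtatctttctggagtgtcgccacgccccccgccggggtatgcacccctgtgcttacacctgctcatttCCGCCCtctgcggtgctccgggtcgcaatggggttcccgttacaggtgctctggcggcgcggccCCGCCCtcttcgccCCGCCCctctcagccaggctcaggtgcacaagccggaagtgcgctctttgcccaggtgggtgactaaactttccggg
Among these runs, only the Phlda2 promoter held a TATA box, 30 bases before the start, and only the Crb3 promoter held 3 GC boxes. Of the 11285 table genes with a promoter in the RefSeq table, 7.1% held the TATA box letters, 38.8% the CCAAT box and 63.7% the GC box, with no overlap between the letters of different motifs marked here. A match is a description of letters and not of binding. A summary over the members' promoters would be void, since 113 of 170 members (66.5%) had an entry, below the 80% needed.

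**Figure D1:**
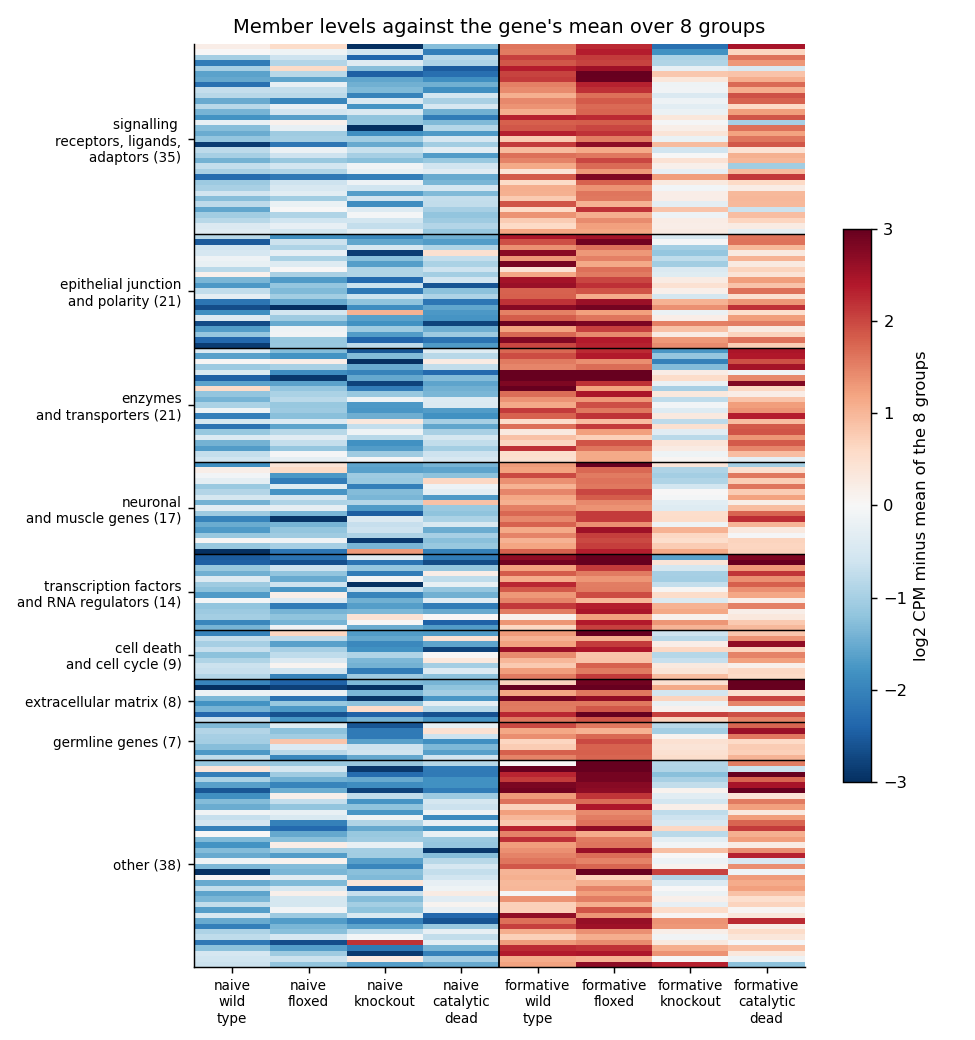
Each row is 1 of the 170 members and each column a group; colour is the mean log2 CPM of the group minus the gene's mean over the 8 groups, with the formative knockout taken without the shared library. Rows are ordered by role and, within a role, by the formative knockout minus floxed difference; the formative floxed column is high and the formative knockout column lower in every row because the rule asks for it, and 1 of the 3 formative catalytic-dead libraries entered the rule through the deposited knockout mean.

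The contrasts that chose the members are given as a description, with no test. Formative minus naive differences ran from 1.02 to 6.22 with a median of 2.64 log2 in wild-type cells, and from 1.01 to 6.38 with a median of 2.66 in floxed cells. The deposited formative knockout minus floxed difference ran from -4.27 to -1.0 with a median of -1.48. Without the shared library the median was -1.72, from -4.89 to -0.38, and 167 of 170 members stayed at -1 or lower. The 3 others were Csn3 (-0.38), Cldn7 (-0.88) and C1ql1 (-0.95), whose levels in the shared library were low. Of 125 members with library values in both groups, 119 had every formative knockout library below every floxed library, a separation that the rule favours.

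Several members sat close to a limit. Just inside the knockout limit were Cldn6 at -1.003 and Spata13 at -1.014, and just outside Arl5c at -0.995 and Mapk4 at -0.993. For the wild-type induction Slc6a15 (1.019) and Ndrg2 (1.025) were just inside, and Tmem106c (0.982) and 2310010J17Rik (0.95) just outside. For the floxed induction Ndrg2 (1.008) and Prss41 (1.066) were inside, and B130034C11Rik (0.993) and Gm17334 (0.974) outside. For the floxed level Fgd2 (2.038) and Igsf1 (2.039) were inside, and Scg5 (1.99) and St8sia2 (1.982) outside. Applied to knockout means without the shared library, the rule gave 210 genes, 167 of them among the members.

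The catalytic-dead line asks how much of the induction remained without the enzyme activity, and neither of its columns was named in the rule. The shared library did enter the rule through the deposited formative knockout mean, so members were chosen in part for low values in 1 of the 3 formative catalytic-dead libraries. Most members were induced in it. Of 143 members with library values in both states, 115 rose from naive to formative catalytic-dead cells and 0 fell by limma, against 18.6% and 11.0% of all genes tested called higher and lower (29.6% in either direction). Without the shared library 111 rose and 0 fell. At an unadjusted p under 0.05, 123 were higher and 1 lower. The median difference was 2.10 log2 over these members and 0.12 over all genes tested. Over all 170 members 142 were at least 1 log2 higher and 3 were lower. Of the 143 with library values, 119 had every formative library above every naive one. No share over all genes stands beside these counts or the unadjusted ones, so they are description only. The share that rose lies above the background, for members that were chosen as induced in 2 other lines.

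Myb, a transcription factor of blood progenitors, was at 8.38, 8.06 and 4.92 CPM in naive and 30.9, 31.8 and 30.6 CPM in formative catalytic-dead libraries. The states did not overlap, and Myb rose by 2.13 ± 0.20 log2 (adjusted p = 2.06e-09). Dcn, the matrix proteoglycan decorin, was at 0.112, 0.304 and 0.82 CPM in naive and 11.9, 13.6 and 10.8 CPM in formative catalytic-dead libraries. Dcn rose by 4.48 ± 0.43 log2 (adjusted p = 2.13e-09), with no overlap. Trim54, a muscle ubiquitin ligase, was among the 3 members lower in formative cells, with 14.1, 11.1 and 12.1 CPM in naive and 6.51, 8.04 and 8.24 CPM in formative libraries. Its difference of -0.70 ± 0.28 did not pass (adjusted p = 0.0574), though it passed when only the catalytic-dead libraries were fitted (adjusted p = 0.0224).

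**Figure D2:**
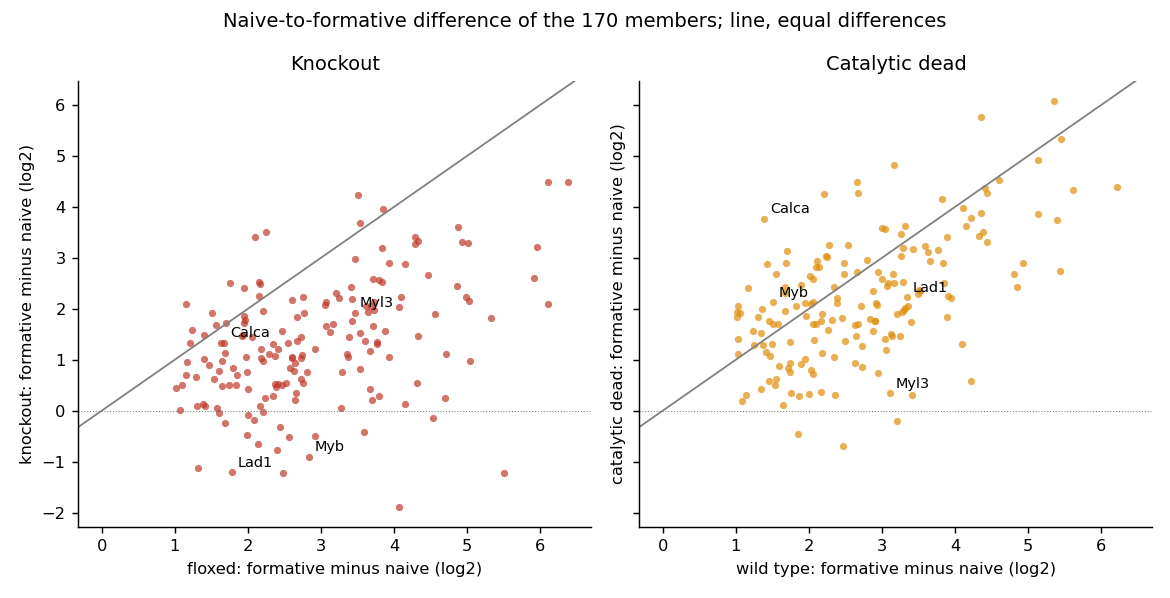
Each point is a member; the horizontal axis is the formative minus naive log2 difference in the control line (floxed, left; wild type, right) and the vertical axis that in the mutant line (knockout, left; catalytic dead, right), with a line of equal differences. Points lie further below the line for the knockout, where the median share kept was 46.0%, than for the catalytic-dead line, where it was 80.6%; the knockout axis shares the formative knockout group with the rule, and the catalytic-dead axis the shared library.

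In knockout cells the induction was smaller. Of 147 members tested, 74 rose from naive to formative knockout cells and 3 fell, against 21.5% and 5.46% of all genes tested (27.0% in either direction). The median was 1.33 log2 over these members and 0.30 over all genes tested. Among all 170, 103 were at least 1 log2 higher and 19 were below 0. The formative knockout column entered the rule, which chose members low in it, so this comparison is pulled down by the choice. The 3 members that fell were Cpne8, Lad1 and Myb. As a share of the log2 difference in the control line, the median member kept 46.0% in knockout against floxed cells and 80.6% in catalytic-dead against wild-type cells, the first of which the rule made small.

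The formative mutants were also compared with each other. Of 143 members tested, 69 were lower and 6 higher in formative knockout than in formative catalytic-dead cells, against 8.58% and 9.89% of all genes tested (18.5% in either direction). The median difference was -1.04 over the tested members and 0.03 over all genes tested, and the rule, which used the formative knockout column, favoured this direction. Without the shared library in the catalytic-dead group 62 were lower and 5 higher. With the shared library kept in the knockout mean the counts were 41 lower and 2 higher of 144 tested. A list of two-cell-like markers, of which 6 were in the table, also separated these lines, with all 6 lower in formative knockout than catalytic-dead cells. Its summed level was 2.6 CPM in knockout, 1.8 CPM in floxed, 17.1 CPM in catalytic-dead and 35.6 CPM in wild-type formative cells, and its part in the members' values was not tested.

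Cda, a cytidine deaminase of pyrimidine salvage, was at 0.301, 0.285 and 0.416 CPM in formative knockout and 7.23, 6.24 and 5.06 CPM in formative catalytic-dead libraries. The groups did not overlap, with a difference of -3.56 ± 0.44 log2 (adjusted p = 3.89e-07). Formative wild-type libraries, at 3.67, 6.38 and 3.72 CPM, overlapped with the catalytic-dead ones. Csn3, a milk casein, ran the other way, at 5.11, 6.57 and 6.24 CPM in formative knockout and 0.286, 0.284 and 0.434 CPM in formative catalytic-dead libraries. It was higher in the knockout by 3.52 ± 0.45 log2 (adjusted p = 7.28e-07), with no overlap. Formative floxed libraries of Csn3 stood at 9.93, 8.30 and 5.78 CPM and overlapped with the knockout ones.

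Formative catalytic-dead cells were compared with formative wild-type cells, where the rule had chosen wild type high and, through the shared library, catalytic dead low. Of 132 members tested, 33 fell and 6 rose, against 3.27% and 4.82% of all genes tested (8.09% in either direction). The median was -0.45 over these members and 0.06 over all genes tested, and 41 of 170 members were more than 1 log2 lower in catalytic-dead cells. Without weights on the libraries 19 fell and 3 rose, and without the shared library, the third formative catalytic-dead one, 21 fell and 5 rose. Ppp4r4, a regulatory subunit of protein phosphatase 4, stood at 37.5, 21.0 and 36.7 CPM in wild-type and at 3.15, 2.08 and 2.31 CPM in catalytic-dead formative libraries. Its libraries did not overlap, and it fell by 3.53 on the log2 scale (SE 0.36, adjusted p = 7.66e-08). Ppp4r4 was at 26.2, 23.5 and 24.2 CPM in formative floxed and 2.91, 2.85 and 3.74 CPM in formative knockout libraries. Both mutants were thus below their control, the knockout because the rule asks for it.

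**Figure D3:**
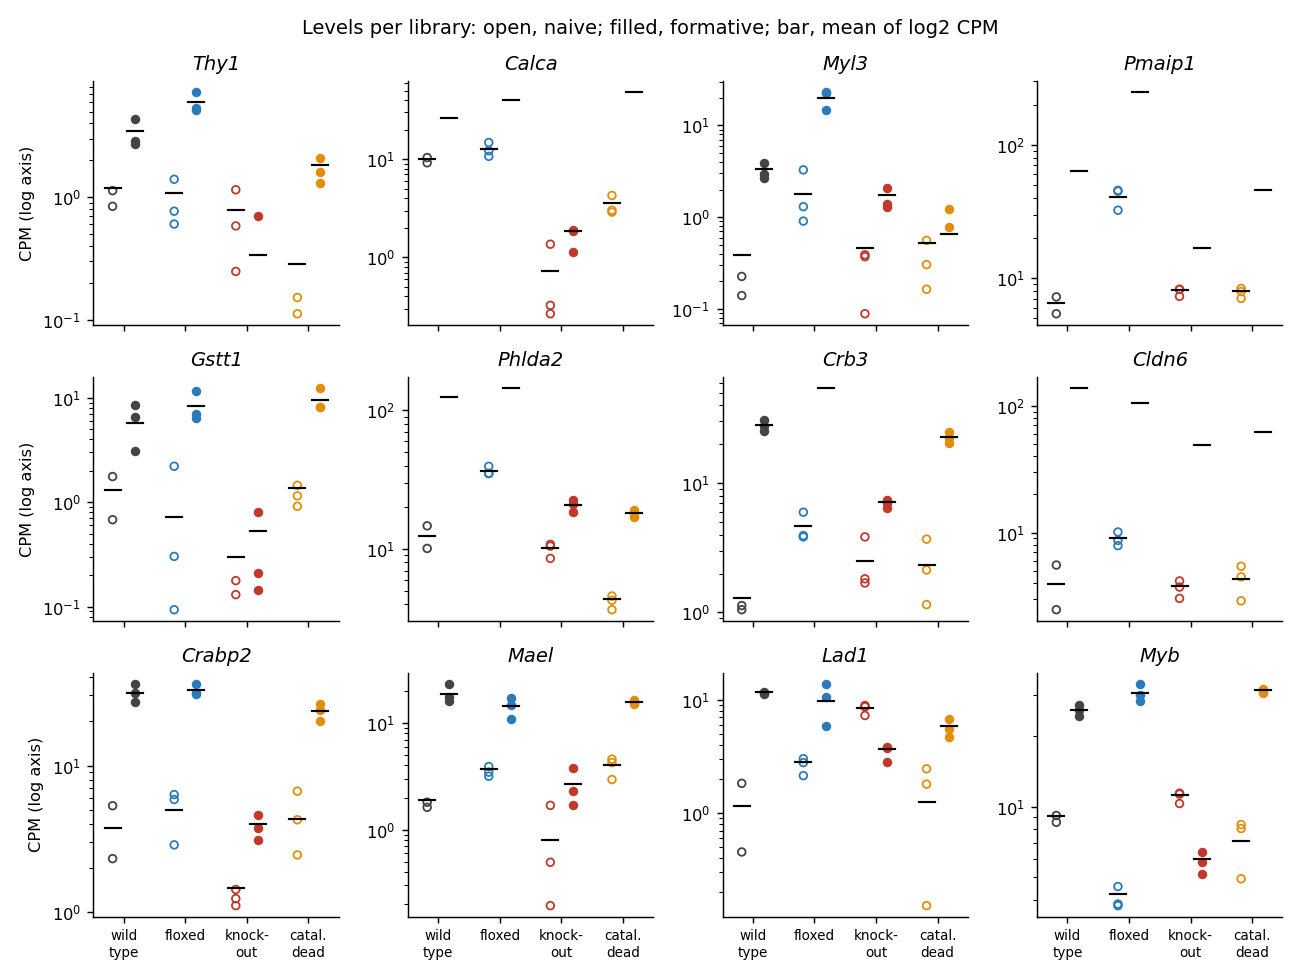
Level of 12 members in each recovered library (CPM, log axis): open points, naive; filled points, formative; bars, the group mean on the log2 scale with its prior count, which lies above the points at low counts. Libraries at 0 CPM and counts that were not recovered have no point, as for Calca in formative wild-type, floxed and catalytic-dead cells; Myb and Lad1 are lower in formative than in naive knockout libraries and higher in formative catalytic-dead ones.

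The naive cells of the lines were also compared. In naive knockout against naive floxed cells, 30 of 161 members tested fell and 10 rose, against 9.44% and 8.06% of all genes tested (17.5% in either direction). The median was -0.31 over these members and -0.03 over all genes tested, and naive floxed cells had been chosen low. In naive knockout against naive catalytic-dead cells, which shares no column with the rule, 25 of 164 fell (15.2%) and 16 rose (9.8%). Over all genes 12.8% fell and 6.21% rose (19.0% in either direction), so these shares were not far from the background. The median was -0.16 over these members and -0.15 over all genes tested. The share that rose ranged from 9 to 13 members when 1 library was left out, and was 9 without the first naive knockout library and 10 without the first or the third naive catalytic-dead library. In naive catalytic-dead against naive wild-type cells, with wild type chosen low, 10 of 166 rose and 9 fell, against 6.43% and 4.82% (11.2% in either direction), shares near the background. These counts moved to 5 that rose without the first naive wild-type library, 4 that rose in a fit of those 2 groups only, 14 that fell with size factors and 17 without weights.

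Calca, which encodes calcitonin and the peptide CGRP, was the member with the largest naive loss in the knockout. It stood at 14.8, 12.2 and 10.7 CPM in naive floxed and at 0.324, 0.266 and 1.36 CPM in naive knockout libraries, which did not overlap. Calca fell by 4.12 on the log2 scale (SE 0.45, adjusted p = 2.74e-07). Naive catalytic-dead libraries were at 3.02, 2.89 and 4.27 CPM and naive wild-type ones at 9.20 and 10.4 CPM, a fall of 1.49 (SE 0.34, adjusted p = 0.00488). Formative Calca means were 26.2 CPM in wild-type, 40.5 CPM in floxed and 48.3 CPM in catalytic-dead cells, and 1.84 CPM in knockout cells. Cpne8, a copine that binds phospholipid with calcium, went the other way, from 0, 0.288 and 0 CPM in naive floxed to 6.61, 7.90 and 8.42 CPM in naive knockout libraries. Cpne8 rose by 4.83 ± 0.48 log2 (adjusted p = 1.29e-08), and fell by 1.88 (SE 0.49, adjusted p = 0.0034) from naive to formative knockout cells.

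The members were then grouped by role, from what each is known to do, after the members had been seen. Counts by role stand beside 80.4% of all tested members and 18.6% of all genes that rose in the catalytic-dead transition, and 50.3% and 21.5% in the knockout transition, whose formative level the rule chose low. Junction and polarity genes of epithelia made up 21 members. All but 1 of the 21 were more than 1 log2 lower in formative knockout than floxed cells without the shared library, the exception being Cldn7. In the catalytic-dead transition 18 of 20 tested rose and 0 fell, and in the knockout transition 12 of 20 rose and Lad1 fell. Their formative catalytic-dead minus wild-type median was -0.95, the lowest of the 9 role groups, and 8 of 16 tested fell, against 25.0% of all tested members and 3.27% of all genes. The shared library had a part in the choice of these members too. A separate list of cadherin and adhesion genes had 29 genes in the table, 3 of them members. In the knockout transition 12 of 22 tested list genes rose and 1 fell, close to the junction members, with a list median of 1.43 log2. Beside wild type, 5 of 23 list genes were lower and 1 higher in catalytic-dead formative cells. The list median for this was -0.39. Between the formative mutants the list ran differently, with 9 of 23 higher and 3 lower in the knockout, against 9.89% and 8.58% of all genes tested. The list median there was 0.26. Of 20 junction members tested there, 1 was higher and 9 lower, a direction that the rule favoured.

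Crb3, the Crumbs protein that marks the apical membrane, stood at 25.2, 30.9 and 27.8 CPM in formative wild-type, 20.5, 24.8 and 22.5 CPM in formative catalytic-dead and 6.42, 7.42 and 7.07 CPM in formative knockout libraries. The knockout libraries lay below all others and differed from catalytic dead by -1.67 ± 0.25 log2 (adjusted p = 1.11e-05), whereas catalytic dead and wild type did not differ past the threshold (-0.30 ± 0.18, adjusted p = 0.341). Rab25, a GTPase of epithelial vesicle recycling, was at 12.6, 17.2 and 12.1 CPM in formative wild-type and 2.86, 2.18 and 1.59 CPM in formative catalytic-dead libraries. It fell by 2.57 on the log2 scale (SE 0.36, adjusted p = 1.01e-05), with no overlap. Rab25 was at 1.5, 0.285 and 0.832 CPM in formative knockout and 4.20, 4.23 and 3.92 CPM in formative floxed libraries, a contrast that the rule used.

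Claudins, which seal tight junctions, gave 3 members. Cldn6 had formative means of 138 CPM in wild-type, 105 CPM in floxed, 62.4 CPM in catalytic-dead and 49.2 CPM in knockout cells. Cldn7 was at 44.5, 28.2 and 35.9 CPM in formative wild-type and 19.6, 10.9 and 14.6 CPM in formative catalytic-dead libraries, which did not overlap. It fell by 1.27 (SE 0.21, adjusted p = 0.000208), and formative knockout libraries were at 23.7, 17.8 and 31.8 CPM. Cldn3 rose in the catalytic-dead transition by 1.41 ± 0.39 (adjusted p = 0.00563), and its knockout transition was 0.54 ± 0.40 (adjusted p = 0.355).

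Esrp1 (a splicing regulator of epithelial cells), Prom1 (a glycoprotein of apical protrusions) and Cgn (cingulin, a tight-junction scaffold) were named after their values were seen. Esrp1 was at 23.4, 17.8 and 22.7 CPM in formative knockout and 19.5, 25.4 and 20.2 CPM in formative catalytic-dead libraries, which overlapped (-0.03 ± 0.19, adjusted p = 0.945). Its formative means were 57.0 CPM in wild-type and 52.8 CPM in floxed cells, above both mutants. It rose in both transitions, by 4.32 ± 0.42 in catalytic-dead (adjusted p = 6.98e-09) and 3.33 ± 0.32 in knockout cells (adjusted p = 4.55e-09). Prom1 stood at 22.7, 19.7 and 23.9 CPM in formative knockout and 32.4, 26.2 and 27.7 CPM in formative catalytic-dead libraries, with means of 97.2 CPM in wild-type and 73.6 CPM in floxed cells. Cgn means were 24.7, 43.9, 19.5 and 12.8 CPM in formative wild-type, floxed, knockout and catalytic-dead cells.

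Lad1, ladinin of the basement membrane zone, had a reversed order in the knockout. It was at 8.69, 7.28 and 8.91 CPM in naive knockout and 3.81, 2.85 and 3.74 CPM in formative knockout libraries. It fell by 1.21 (SE 0.40, adjusted p = 0.0204), a call that was lost without the first naive knockout library, without the first or the second formative knockout library and without weights (adjusted p of 0.0504 to 0.0865). In catalytic-dead cells Lad1 rose from 2.46, 0.152 and 1.80 CPM to 6.80, 4.73 and 5.49 CPM (2.23 ± 0.51, adjusted p = 0.00109).

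Signalling genes made up 35 members. In the catalytic-dead transition 23 of 29 tested rose, in the knockout transition, where the rule had chosen the formative level low, 10 of 28 rose, and 0 fell in either. Over all genes 18.6% and 21.5% rose. Thy1, a cell-surface glycoprotein of neurons, thymocytes and fibroblasts, was at 5.35, 7.20 and 5.13 CPM in formative floxed and 0.702, 0 and 0 CPM in formative knockout libraries. Formative catalytic-dead libraries stood at 2.08, 1.61 and 1.30 CPM, above the knockout, with a difference of -2.45 ± 0.53 (adjusted p = 0.00108). Thy1 rose in the catalytic-dead transition by 2.69 ± 0.45 (adjusted p = 2.52e-05).

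Crabp2, which carries retinoic acid to its receptors, was at 35.7, 31.2 and 30.7 CPM in formative floxed, 27.2, 31.1 and 35.9 CPM in formative wild-type and 26.3, 20.1 and 24 CPM in formative catalytic-dead libraries. Formative knockout libraries were at 3.11, 4.57 and 3.74 CPM, below all of these, and differed from catalytic dead by -2.57 ± 0.32 (adjusted p = 4.96e-07). The rule had chosen the formative knockout low against floxed. Crabp2 was already lower in naive knockout than naive floxed cells, at 1.43, 1.24 and 1.11 against 5.87, 2.88 and 6.34 CPM (-1.77 ± 0.43, adjusted p = 0.00328).

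Adaptors of receptor tyrosine kinases differed among themselves. Grb10, an imprinted adaptor that restrains insulin signalling, was at 23.9, 29.7 and 29.3 CPM in formative and 27.7, 18 and 21.5 CPM in naive catalytic-dead libraries, which overlapped (0.32 ± 0.18, adjusted p = 0.214). Its formative means were 192 CPM in wild-type, 197 CPM in floxed and 54.5 CPM in knockout cells. Grb7, its relative, had formative means of 66.8, 73.3, 56.7 and 20.7 CPM in wild-type, floxed, catalytic-dead and knockout cells. In naive cells Grb7 fell from 15.6, 17.6 and 12.8 CPM in floxed to 2.01, 1.33 and 1.61 CPM in knockout libraries (-3.07 ± 0.32, adjusted p = 2.62e-07). Dok2, a docking protein that dampens kinase signalling, was at 12.3, 15.4 and 10.2 CPM in formative knockout and 12.2, 11.9 and 14 CPM in formative catalytic-dead libraries, which overlapped (-0.03 ± 0.21, adjusted p = 0.955). Formative wild-type libraries of Dok2 stood at 27.4, 32.0 and 27.1 CPM, and it fell in catalytic-dead cells by 1.17 (SE 0.18, adjusted p = 5.17e-05).

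Spred3, an inhibitor of Ras and ERK signalling, was at 7.56, 9.99 and 10.5 CPM in formative floxed and 3.11, 2.71 and 2.91 CPM in formative knockout libraries. It rose in the catalytic-dead transition by 2.73 ± 0.49 (adjusted p = 6.08e-05), and in knockout cells its difference of 0.98 ± 0.47 did not pass (adjusted p = 0.127). Of the 27 listed genes of the FGF and ERK pathway, all in the table, Spred3 was the only member. In the catalytic-dead transition 11 of 20 tested list genes went up past the threshold and 1 went down, against 18.6% and 11.0% of all genes. In the knockout transition 12 of 18 went up and 0 down, against 21.5% and 5.46%. Fgfbp1, a carrier of FGF chosen after its values were seen, did not pass in either transition, at -0.46 ± 0.34 in catalytic-dead (adjusted p = 0.347) and 0.24 ± 0.27 in knockout cells (adjusted p = 0.575). Its formative libraries were at 17.1, 17.2 and 14.7 CPM in wild-type and 3.86, 4.07 and 2.60 CPM in catalytic-dead cells, a fall of 2.18 (SE 0.28, adjusted p = 3.19e-06).

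Factors that regulate transcription or RNA made up 14 members, of which 10 of 11 tested rose in the catalytic-dead and 6 in the knockout transition, where 1 fell. This last was Myb, at 11.4, 10.3 and 11.3 CPM in naive and 6.42, 5.14 and 5.82 CPM in formative knockout libraries, without overlap. It fell by 0.90 (SE 0.23, adjusted p = 0.0032), and did not pass with the shared library kept in (adjusted p = 0.531). In formative floxed libraries Myb stood at 33.3, 28.1 and 29.8 CPM. Naive Myb was higher in knockout than floxed cells by 1.39 ± 0.24 (adjusted p = 5.25e-05).

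Sox3, a SoxB1 factor of epiblast and neural progenitors, had formative means of 77.1 CPM in wild-type, 46.9 CPM in floxed, 56.0 CPM in catalytic-dead and 9.94 CPM in knockout cells. Naive Sox3 libraries were at 2.01, 1.86 and 1.73 CPM in knockout and 10.5, 7.40 and 14.4 CPM in floxed cells, a fall of 2.36 (SE 0.37, adjusted p = 5.1e-05). Nr6a1, a nuclear receptor that represses Pou5f1 as cells leave pluripotency, had formative means of 429 CPM in wild-type, 303 CPM in floxed, 173 CPM in catalytic-dead and 115 CPM in knockout cells. Of the 21 formative factors in the table that had been listed, few could be tested, as abundant genes had no library values. In the catalytic-dead transition 4 of 6 tested rose and 2 fell, against 18.6% and 11.0% of all genes tested. In the knockout transition 3 of 4 tested rose and 1 fell, against 21.5% and 5.46%. With the untested genes included, 17 were above 0 in the catalytic-dead transition (list median 2.03 log2) and 19 in the knockout one (2.3). Fgf5, the usual formative marker, was no member, with formative means of 20.3 CPM in floxed and 58.7 CPM in knockout cells. Formative Fgf5 means were 56.5 CPM in wild-type cells, near the knockout, and 19.4 CPM in catalytic-dead cells, near the floxed line.

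The microRNA gene Mir302b lies in the miR-302 cluster, which is transcribed in pluripotent cells and shortens the G1 phase. Tags over it can count polyadenylated precursor RNA, or RNA of a gene that overlaps it, and not the mature microRNA. It is shown because it is the microRNA among the members, with its mature arms from RefSeq (GRCm38.p6) and the seed, bases 2 to 8, in capitals.
mmu-miR-302b-5p, chr3:127545238-127545260, plus strand: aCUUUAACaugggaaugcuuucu
mmu-miR-302b-3p, chr3:127545275-127545297, plus strand: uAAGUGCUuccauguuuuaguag
The 3p seed is the one shared by the miR-302 family. Mir302b was at 0 CPM in all 3 naive floxed libraries and at 3.13, 7.71 and 3.27 CPM in formative floxed ones, and stood at 1.40, 0.714 and 3.74 CPM in formative knockout libraries, which overlapped with floxed. It rose in the catalytic-dead transition by 3.62 ± 0.45 (adjusted p = 2.01e-07) from 0 CPM in all 3 libraries to 3.29, 1.14 and 3.18 CPM, so that the fitted size rests on the prior count.

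Cell death and cell cycle genes made up 9 members, 3 of them BH3-only proteins that trigger apoptosis (Pmaip1, Hrk and Bik) and 1 the survival protein Bcl2. Hrk, Bik and Bcl2 were named after their values were seen. All 8 members tested in this group rose in the catalytic-dead transition, and 5 rose in the knockout transition. Pmaip1, or Noxa, was the most reduced, with formative means of 248 CPM in floxed and 16.9 CPM in knockout cells. Formative wild-type and catalytic-dead means were 63.2 and 46.0 CPM. The lines already differed when naive, at 45.5, 32.3 and 44.9 CPM in floxed and 8.23, 8.25 and 7.30 CPM in knockout libraries, a fall of 2.32 (SE 0.21, adjusted p = 3.38e-08). Naive wild-type libraries of Pmaip1 stood at 5.41 and 7.24 CPM, near the naive knockout.

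Hrk was at 9.22, 11 and 14.4 CPM in naive floxed and 4.28, 4.44 and 3.09 CPM in naive knockout libraries, and fell by 1.49 (SE 0.30, adjusted p = 0.000501). It rose in the knockout transition by 1.72 ± 0.30 (adjusted p = 4.75e-05). Bcl2 rose in both mutants, by 2.03 ± 0.41 in knockout (adjusted p = 0.000298) and 1.81 ± 0.47 in catalytic-dead cells (adjusted p = 0.00369). Genes that promote and genes that block apoptosis were both among the members.

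Matrix genes made up 8 members. Dcn stood at 12.3, 9.40 and 9.80 CPM in formative floxed and 2.11, 1.43 and 1.87 CPM in formative knockout libraries. It was higher in formative catalytic-dead than in wild-type cells, which were at 1.30, 1.86 and 3.72 CPM (2.41 ± 0.32, adjusted p = 4.12e-06). Cthrc1, a secreted protein of remodelling matrix, rose in both mutants, by 4.52 ± 0.56 in catalytic-dead (adjusted p = 2.26e-07) and 4.49 ± 0.65 in knockout cells (adjusted p = 2.21e-06). Formative Cthrc1 libraries were at 21.2, 44.5 and 32.5 CPM in floxed and 6.82, 14.1 and 8.73 CPM in knockout cells. Enpp2, or autotaxin, which makes lysophosphatidic acid, had formative means of 184 CPM in wild-type, 227 CPM in floxed, 206 CPM in catalytic-dead and 50.2 CPM in knockout cells. Dcn and Thy1 also belong to a list of 12 fibroblast markers, of which 8 were in the table. The summed formative level of that list was 82.2 CPM in floxed and 410.7 CPM in knockout cells. It was 64.7 CPM in formative wild-type and 106.6 CPM in formative catalytic-dead cells. Such a sum weighs abundant genes most. In formative knockout against catalytic-dead cells 2 of 7 tested list genes were higher and 2 lower, against 9.89% and 8.58% of all genes tested. The list median there was -0.36, and the list's part in the members' values was not tested.

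Neuronal and muscle genes made up 17 members, of which 10 of 15 tested rose in the catalytic-dead and 9 of 16 in the knockout transition. Myl3, a myosin light chain of slow and cardiac muscle, was at 22.3, 14.7 and 23.0 CPM in formative floxed and 1.40, 1.28 and 2.08 CPM in formative knockout libraries. It stood at 3.89, 2.65 and 2.92 CPM in formative wild-type and 0.787, 1.23 and 0 CPM in formative catalytic-dead libraries, a fall of 2.32 (SE 0.54, adjusted p = 0.0053) that was lost without the third catalytic-dead library (adjusted p = 0.0961). Myl3 did not pass in the catalytic-dead transition (0.34 ± 0.67, adjusted p = 0.753). It lies 5.3 kb from the start of Pth1r, a receptor for parathyroid hormone on the other strand and also a member (named after its values were seen), and the annotated genes overlap, so their tags may be mixed.

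Stmn4, a neuronal microtubule regulator, was at 4.34, 4.70 and 4.33 CPM in naive knockout and 0.186, 0.0961 and 0.453 CPM in naive floxed libraries. It rose by 3.45 ± 0.40 (adjusted p = 1.41e-07), and formative knockout libraries stood at 5.01, 3.43 and 3.74 CPM, near the naive ones. In catalytic-dead cells Stmn4 rose from 0.224, 0.456 and 0.164 CPM to 2.93, 3.5 and 2.17 CPM (2.68 ± 0.42, adjusted p = 7.97e-06).

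Germline genes made up 7 members, of which all 6 tested rose in the catalytic-dead and 6 of 7 in the knockout transition. Mael, which protects germ cells through the piRNA pathway, was at 10.9, 17.3 and 14.7 CPM in formative floxed, 16.1, 23.2 and 17.5 CPM in formative wild-type and 15.1, 15.5 and 16.6 CPM in formative catalytic-dead libraries. Formative knockout libraries stood at 3.81, 1.71 and 2.29 CPM, below all of these, and differed from catalytic dead by -2.57 ± 0.35 (adjusted p = 1.7e-06). The lower level against floxed was asked for by the rule. Naive Mael was also lower in knockout than floxed cells (-2.20 ± 0.48, adjusted p = 0.00123).

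Enzymes and transporters made up 21 members, of which 13 of 14 tested rose in the catalytic-dead and 8 of 15 in the knockout transition. This was the role group with the highest formative catalytic-dead minus wild-type median, 0.19, beside -2.00 for knockout minus floxed, which the rule used. Gstt1, a glutathione transferase whose promoter is shown above, was at 6.41, 7.03 and 11.6 CPM in formative floxed and 0.802, 0.143 and 0.208 CPM in formative knockout libraries. Formative catalytic-dead libraries stood at 8.16, 12.4 and 8.24 CPM and overlapped with wild type at 3.10, 8.54 and 6.51 CPM. Gstt1 was lower in formative knockout than in catalytic-dead cells by -4.20 ± 0.60 (adjusted p = 4.45e-06). Its neighbour Gstt2, named after its values were seen, had formative means of 96.7 CPM in floxed, 12.4 CPM in knockout and 174 CPM in catalytic-dead cells. Gstt1 and Gstt2 are paralogs, and tags shared between them could have been counted for either. Emb, a chaperone of lactate transporters, had formative means of 541 CPM in wild-type, 365 CPM in floxed, 332 CPM in catalytic-dead and 141 CPM in knockout cells.

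**Figure D4:**
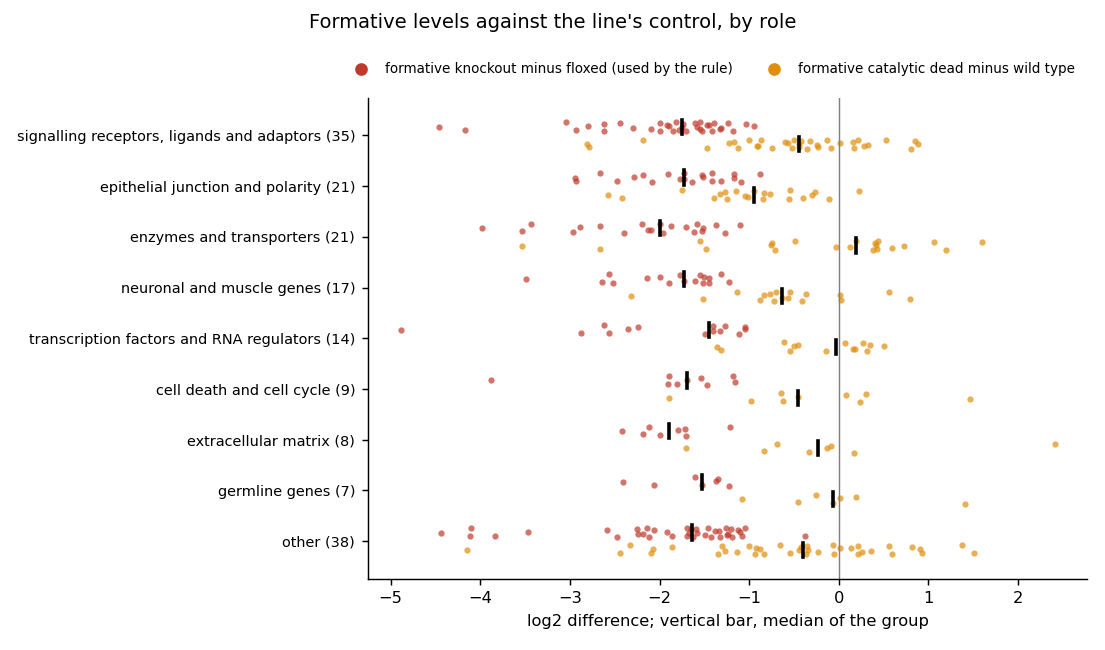
Formative log2 difference of each member from its line's control, by role, with the number of members in brackets: red, knockout minus floxed without the shared library, which the rule used; orange, catalytic dead minus wild type; black bars, medians. Medians of the orange points run from -0.95 for junction and polarity genes to 0.19 for enzymes and transporters.

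The remaining 38 members had other or unknown roles. They include 9 genes with no symbol in the table, and gene models whose tags may belong to related or overlapping genes, such as Mup6, H2-Q2 and 2610528J11Rik. In this group 21 of 33 tested rose in the catalytic-dead and 14 of 35 in the knockout transition. Protein-coding genes made up 94.1% of the members and 81.5% of the table. The median gene length was 17.6 kb for members and 17.9 kb for the table.

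Members lay near each other more often than other genes lay near a member, as a description with no test. Within 100 kb of another member were 21 members (12.4%), against 3.6% of 16440 other genes, and within 1000 kb 59 members (34.7%) against 21.3%. Several of these neighbours are paralogs or overlapping genes, whose counts may share tags. Phlda2, an imprinted inhibitor of placental growth, and Cdkn1c, the imprinted cell cycle inhibitor p57, lie 42.1 kb apart on chromosome 7. Phlda2 was at 18.5, 22.6 and 21.2 CPM in formative knockout and 17.3, 17.1 and 19.2 CPM in formative catalytic-dead libraries, with means of 145 CPM in floxed and 126 CPM in wild-type cells. The mutants overlapped and did not differ past the threshold (0.21 ± 0.18, adjusted p = 0.478). Cdkn1c was at 12.5, 5.71 and 11 CPM in formative knockout and 13.3, 6.34 and 10.6 CPM in formative catalytic-dead libraries, against 39.4, 29.0 and 42.6 CPM in wild type. In catalytic-dead cells Cdkn1c fell by 1.90 (SE 0.26, adjusted p = 7.83e-06). Between them lies Slc22a18, a transporter gene that was not a member, with a formative knockout minus floxed difference of -1.59. Nap1l4 and Cars, within 100 kb of Phlda2 on its other side, stood at 0.15 and -0.24.

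Tmem63a, a stretch-activated channel named after its values were seen, lies 7.3 kb from the start of Lefty1 on chromosome 1. Lefty1, an inhibitor of Nodal, met the thresholds and was left out by name. Formative knockout minus floxed differences were -3.87 for Lefty1 and -2.14 for Tmem63a. Lefty2, 41.9 kb away, stood at -0.97, and the more distant Sde2 and Ephx1 at 0.54 and 0.23. Tmem63a was at 9.02, 6.71 and 10.4 CPM in formative knockout and 30.6, 29.1 and 36.6 CPM in formative catalytic-dead libraries, lower by -1.87 ± 0.23 (adjusted p = 6.59e-07) with no overlap. Its catalytic-dead transition was a rise of 3.14 ± 0.29 (adjusted p = 2.31e-09), and its knockout transition of -0.47 ± 0.25 did not pass (adjusted p = 0.171). Around Gstt1, members Gstt1 and Gstt2 had differences of -3.98 and -2.97, and the closer neighbours Gstt3 and Ddt of -0.48 and -0.63.

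**Figure D5:**
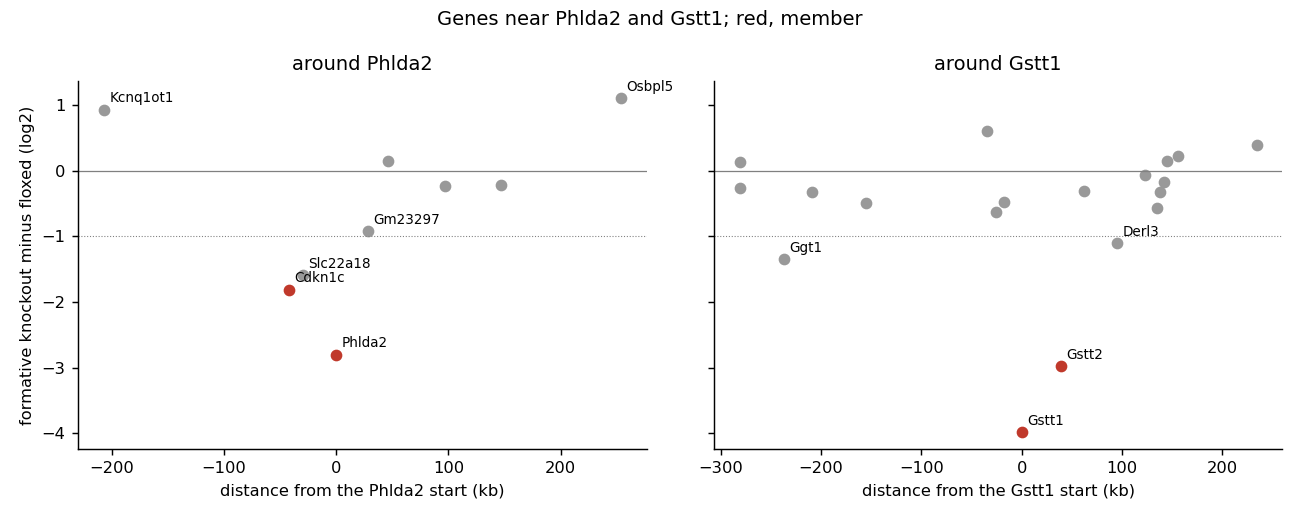
Formative knockout minus floxed log2 difference (without the shared library) of each measured gene by its distance from the start of Phlda2 or Gstt1 (kb); red points are members and the dotted line is the limit of -1. Cdkn1c, the non-member Slc22a18 and Phlda2 lie below -1 in a row, as do Gstt1 and Gstt2, with most other neighbours between -1 and 1.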

How the data were processed

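The measurement was 3' tag RNA-seq (QuantSeq FWD) of mouse embryonic stem cells. Per the submitters' processing notes, FastQC 0.11.8, MultiQC, cutadapt 2.5, STAR, featureCounts of Subread 1.6.4, DESeq2 1.34.0 and mm10 were used. No source used here says if tags were counted by strand, so overlapping and antisense genes may share counts. The authors deposited 1 table of log2 CPM with a prior count of 2, averaged per group. The deposited means fix the whole counts that can produce them, and counts were recovered on that basis, with sizes within 0.042 of whole numbers. Genes of high count have too many solutions, so they have means and no test. Only 2 libraries stood behind naive wild type, and 6812462 of all 234513119 counts belonged to a library in no column. The library shared with the catalytic-dead column was taken out of the formative knockout mean. Recovery and test were also run on simulated data, drawn with the same spread between libraries for all genes besides counting noise. The outcome is not given here, and real genes differ in spread.

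Library values went into limma 3.58.1 (R 4.3.3), in 1 model of 8 groups with moderated variances and with weights from a trend of SD on count (lowess span 0.3). A gene needed 10 counts at the median library size (0.98 CPM) in at least 3 libraries, and unrecovered values counted as passing; all 170 members passed. P-values were adjusted by Benjamini-Hochberg over all genes tested in each of 7 comparisons, 0.05 was the threshold, and ± gives the SE. P-values set each difference against the spread between these libraries, which the search around each group's mean can lower. Tests of naive wild type rest on 2 libraries.

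Members, gene lists and roles were chosen with earlier results of these data known. Genes named are the 15 most reduced and the 10 highest members, members of the gene lists, those at the limits of the rule and the 3 largest calls per direction and comparison, of which the text gives those that matter, plus others marked as chosen later. Some members that the rule names are not reported here. Genes were placed with GENCODE vM21. Alternatives were another scaling, no weights, fewer groups, a prior count of 0.5, other filters, the knockout column as deposited, and each library left out.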

Additional observations from a re-analysis of the deposited data

Results flagged for a closer look

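In 3 named members the naive-to-formative difference ran in opposite directions in the knockout and the catalytic-dead line, with every formative library on one side of every naive library in each line. Myb changed by -0.90 log2 in knockout and 2.13 log2 in catalytic-dead cells. Lad1 changed by -1.21 and 2.23 log2. Igsf1, a membrane protein of the immunoglobulin family, differed by -0.49 log2 in knockout cells, from 0.648, 0.532 and 0.495 CPM to 0.401, 0.428 and 0.208 CPM, which did not pass (limma, adjusted p = 0.631). In catalytic-dead cells Igsf1 rose by 2.21 log2 (adjusted p = 0.00247), which was lost without the third naive library (adjusted p = 0.0616). The difference between the 2 transitions was not tested, and the rule chose members low in formative knockout cells.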

How the results depend on the processing

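The rule gave 186 genes with size factors, 163 of them members, and 123 to 243 with limits of 1.2 to 0.8. Most counts of called members stayed within 1.5 times of the value reported under every alternative. The exceptions were as follows. In formative catalytic dead against wild type 19 fell and 3 rose without weights, and 21 to 30 fell with 1 library left out, the lowest without the third catalytic-dead library. In naive catalytic dead against wild type, 4 rose when only these groups were fitted, 14 fell with size factors and 17 without weights, and 5 to 10 rose with 1 library left out, lowest without the first wild-type library, after which 1 library remained that was assumed to vary like the others. In formative knockout against catalytic dead, 41 were lower and 2 higher with the knockout column as deposited. In the catalytic-dead transition 1 member, Trim54, fell when only those groups were fitted. In naive knockout against catalytic dead 9 to 13 were higher with 1 library left out. Size factors shift all genes of a comparison by more than 0.1 log2 in the knockout transition and in naive catalytic dead against wild type, with group factors of 0.093 and -0.011, and 0.042 and -0.087. Of 194 called values of named genes 56 lost the call under at least 1 alternative, and 0 reversed. No paired analysis was possible because the recovered libraries carry no replicate numbers. Depth limits low members: 1 count was 0.0648 CPM in the largest library, and abundant genes had no library values. The cause of these changes was not tested.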
